A study of Homo sapiens with 6 samples.

Results

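Histone genes encode the proteins that package DNA into nucleosomes. Members of the histone gene family were taken by their symbols in the array's probe annotation: those beginning with H1-, H2AC, H2BC, H3C, H4C, H2AZ, H2AX, MACROH2A or H3-3, and those whose older name began with HIST1, HIST2, H1F, H2AF or H3F, such as H2AJ (H2AFJ) and the testis H3 gene H3-4 (H3FT). They comprised 59 of the 12165 genes with a probe set of their own, of which 51 were clustered and 8 were replacement genes. Of the 86 histone probe sets, 74 named 1 gene and 12 were shared by several genes. The shared ones are described as probe sets and were assigned to no gene, so H3-3A, which was read on shared probe sets alone, is not among the 59.

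The cells were LNCaP, an androgen-responsive line from a human prostate cancer, grown in RPMI medium with serum. Cultures received 20 µM gedunin, a limonoid natural product of the neem tree and its relatives, or DMSO, its solvent, for 6 h. The 3 gedunin arrays were compared with DMSO 1 and DMSO 2 (5 arrays), and the array labelled DMSO 3 is shown apart. The labels number the arrays as biological replicates without describing the cultures, so the p-values reflect only how these arrays vary.

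DMSO 3 lacked the markers of its labelled cell line. KLK3, the gene of the prostate-specific antigen PSA, read 24.5 there against 2093 and 1810 on DMSO 1 and 2, and CD74, the class II invariant chain of antigen-presenting cells, read 4294 against 20.0 and 20.8. Of 9 measured luminal prostate markers the median log2 difference from DMSO 1 and 2 on that array was -4.49, and of 10 leukocyte markers it was 5.76. Lower quartiles of intensity were 19.4 to 20.7 and upper quartiles 128 to 146 over the 6 arrays. In these bulk samples, fewer cells of a type and less RNA per cell cannot be told apart.

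A nucleosome wraps DNA around H2A, H2B, H3 and H4, and the linker histone H1 binds where DNA enters and leaves it. Clustered histone genes are copied in groups, lack introns and are transcribed mainly in S phase. Most of their messages end in a stem-loop in place of a poly(A) tail, bound by the protein SLBP, and some of the genes also give polyadenylated messages. Replacement histones are mostly encoded by single genes with polyadenylated messages, are largely made throughout the cell cycle and replace the S-phase forms at chosen sites. The labels name the standard Affymetrix protocol and not the primer used to copy the RNA, so which message forms each probe set read was not tested.

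The upstream sequences of the 8 clustered genes that changed with gedunin are shown because these genes carry the changes among clustered members. Each run is the 140 bases before the RefSeq start (GRCh38.p14), 5′ to 3′ on the strand of the gene. Capitals mark exact matches, on either strand, to the octamer ATTTGCAT of H2B promoters, the CCAAT box CCAAT, the TATA box TATAAA and the H1 box AAACACA. The first 4 genes fell and the last 4 rose.
H2BC8, chr6:26216689-26216828, minus strand: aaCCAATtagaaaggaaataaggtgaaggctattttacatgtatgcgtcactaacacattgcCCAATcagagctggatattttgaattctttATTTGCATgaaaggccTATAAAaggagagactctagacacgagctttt
H2BC9, chr6:26251474-26251613, plus strand: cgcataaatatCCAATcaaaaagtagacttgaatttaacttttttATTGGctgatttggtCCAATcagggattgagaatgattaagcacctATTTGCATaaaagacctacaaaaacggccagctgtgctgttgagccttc
H2BC5, chr6:26157981-26158120, plus strand: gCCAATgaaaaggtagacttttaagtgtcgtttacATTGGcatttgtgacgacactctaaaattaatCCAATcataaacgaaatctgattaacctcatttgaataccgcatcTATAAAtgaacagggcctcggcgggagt
H1-2, chr6:26056471-26056610, minus strand: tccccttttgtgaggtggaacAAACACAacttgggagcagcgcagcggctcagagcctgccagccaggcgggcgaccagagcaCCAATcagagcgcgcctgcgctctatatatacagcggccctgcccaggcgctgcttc
H2AC15, chr6:27838376-27838515, minus strand: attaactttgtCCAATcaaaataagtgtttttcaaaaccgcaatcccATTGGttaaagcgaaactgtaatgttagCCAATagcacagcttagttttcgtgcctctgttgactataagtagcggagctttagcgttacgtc
H4C8, chr6:26285535-26285674, minus strand: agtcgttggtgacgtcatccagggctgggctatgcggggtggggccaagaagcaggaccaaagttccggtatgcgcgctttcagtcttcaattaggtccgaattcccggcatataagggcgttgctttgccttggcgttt
H2AC25, chr1:228457874-228458013, minus strand: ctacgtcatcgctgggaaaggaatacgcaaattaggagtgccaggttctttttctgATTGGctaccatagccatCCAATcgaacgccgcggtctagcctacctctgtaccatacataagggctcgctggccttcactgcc
H3C4, chr6:26199294-26199433, minus strand: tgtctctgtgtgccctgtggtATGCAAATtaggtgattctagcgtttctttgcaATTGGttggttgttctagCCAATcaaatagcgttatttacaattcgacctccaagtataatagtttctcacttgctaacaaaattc

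RefSeq promoter entries, from 250 bases before to 50 after the start, matched 55 of the 59 genes, and the first listed start was used where a gene had several. The octamer was in 11 of 14 clustered H2B promoters, in 7 of 11 clustered H2A promoters and in 0 of 8 clustered H4 promoters, against 1.80% of 27305 promoters. In H2BC8 it lay 48 bases and in H2BC9 49 bases before the start, while the H2BC5 window held no exact copy. The H1 box was in all 6 clustered H1 promoters and in no other member, against 5.76% of all promoters. CCAAT was in 42 of 47 clustered promoters (35.7% of all promoters), and the H4C8 window held none of these 4 motifs. A heat shock element, searched as 3 alternating units on both strands, was in 0 of the 55 windows, against 0.487% of all promoters. An antioxidant response element, searched as TGACNNNGC, was in 7 of 47 clustered promoters, H2AC15 and H4C8 among them, and in 13.6% of all promoters. These are matches of letters in a window, not measured binding.

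Histone genes changed in both directions with gedunin. Of the 59 genes, 4 rose and 6 fell, or 16.9%, against 17.6% of all genes called in either direction, 8.24% higher and 9.36% lower. The share of histone genes called thus lay near that of all genes. Among clustered genes 4 rose (H2AC15, H2AC25, H3C4, H4C8) and 4 fell (H2BC8, H1-2, H2BC9, H2BC5), with a median log2 fold change of 0.017. Among replacement genes 0 rose and 2 fell (H1-10, MACROH2A1), with a median of -0.093, beside -0.017 over all genes. No list test was made, and with 8 replacement genes the difference between the 2 kinds is a description.

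**Figure D1:**
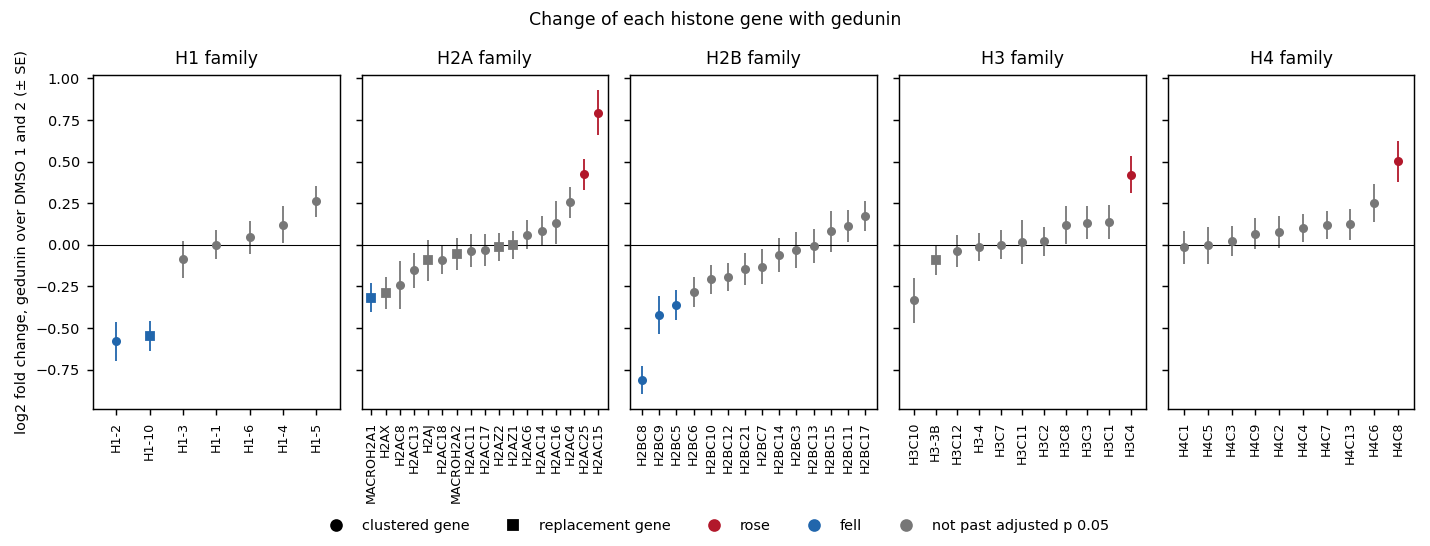
Log2 fold change (gedunin over DMSO 1 and 2, y axis) of each of the 59 histone genes, grouped by family and ordered by value, with moderated standard errors as bars. Circles are clustered and squares replacement genes; the 10 coloured genes passed an adjusted p of 0.05, and the falls lie in the H1, H2A and H2B families while H3 and H4 show 1 rise each.

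All changes were under 2-fold, between -0.81 and 0.79 on the log2 scale. Calls are those of limma at an adjusted p under 0.05 over all 22215 probe sets. The mean of 33 of the 59 genes lay below the array median intensity of 31.5, where RMA compresses folds. Of these 33, 1, H2BC8, was called, beside 177 of the 5290 genes below that median among all genes. That left 26 brighter histone genes, of which 4 rose and 5 fell, beside 924 and 1041 of the 6875 brighter genes among all genes. Centring each array on GAPDH and ACTB moved the median of all genes to -0.19 and gave 1 histone gene higher and 12 lower, beside 652 higher and 3139 lower of all 12165 genes. That centring moves every gene alike. With the array labelled DMSO 3 counted as a control, limma called 0 of 59 histone genes against 1.67% of all genes, and 4 of 59 at an unadjusted p under 0.05, against 13.4% of all genes.

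**Figure D2:**
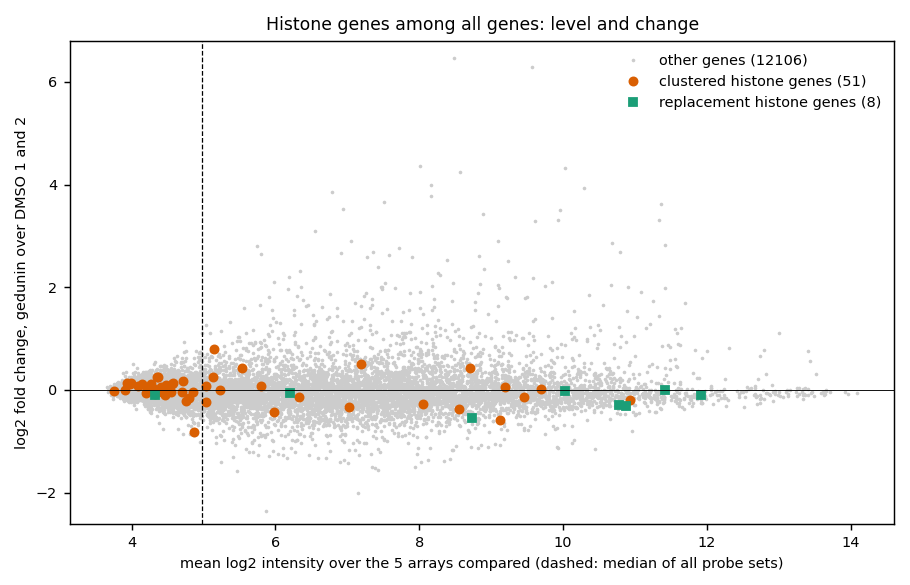
Mean log2 intensity over the 5 arrays (x axis) against log2 fold change (y axis) for 12165 genes, with 51 clustered histone genes as circles and 8 replacement genes as squares. Of the clustered genes 32 lie left of the dashed line at the median of all probe sets, and no histone gene changed by 2-fold.

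Of the 7 linker histone H1 genes, 2 fell, against 9.36% of all genes. They were the clustered H1-2 and the replacement H1-10, the brightest of the 7. H1-2, a broadly made somatic H1 whose gene also gives polyadenylated messages, read 446, 551 and 439 with gedunin (479 ± 62.8, SD, n = 3) and 671 and 753 on DMSO 1 and 2. The groups did not overlap, and the second gedunin array was the closest to the controls. Groups without overlap also occurred in genes not called, such as H2AC14 (adjusted p = 0.610), and their share over all genes was not counted. H1-2 fell by 0.58 ± 0.12 on the log2 scale, to 67.0% of DMSO (limma adjusted p = 0.00828). Without DMSO 2 it was not called (-0.50, adjusted p = 0.0988).

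The other clustered H1 genes read near or below the array median and none passed. H1-5 read 35.5 to 41.1 with gedunin against 31.0 and 31.8, a log2 fold change of 0.26 ± 0.10 (adjusted p = 0.106). H1-1, H1-3, H1-4 and the testis gene H1-6 lay between 17.4 and 23.4 on all 5 arrays, with log2 fold changes from -0.087 to 0.12. H1-10, the replacement linker histone H1X, read 369, 382 and 342 against 543 and 523, with all gedunin arrays below both controls. It fell by 0.55 ± 0.09 (adjusted p = 0.00261) and was called whichever of the 5 arrays was left out. On the array labelled DMSO 3 it read 111, and with that array among the controls the sign turned (0.21 ± 0.64).

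H2A genes supplied 2 of the 4 rises. H2AC15, a clustered H2A gene, read 45.7, 48.9 and 38.0 with gedunin and 28.7 and 22.3 in DMSO. The lowest gedunin array stood above the higher control, and the mean over the 5 arrays, 35.3, lay close to the array median. It rose by 0.79 ± 0.14 (adjusted p = 0.00333), the largest rise of the family, and missed the threshold without DMSO 2 (0.61, adjusted p = 0.0513). H2AC25, an H2A gene outside the large cluster and on chromosome 1, read 450, 508 and 459 against 368 and 336 and rose by 0.42 ± 0.10 (adjusted p = 0.0144). It was not called without DMSO 1 (0.49, adjusted p = 0.0506) or DMSO 2 (0.36, adjusted p = 0.134), nor after centring on GAPDH and ACTB (0.25).

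Of 11 clustered H2A genes, 2 rose and 0 fell, against 8.24% and 9.36% of all genes, with a median of 0.061. H2AC6, another gene known to give polyadenylated messages, read 585 to 614 against 549 and 593 (0.06 ± 0.09, adjusted p = 0.725). The brightest clustered H2A signal was on a probe set shared by H2AC18 and H2AC19, at 1706 to 1778 with gedunin against 1664 and 1457 (0.17 ± 0.09, adjusted p = 0.289). Another probe set of the same pair of genes read 519 to 625 against 524 and 504 (0.16 ± 0.10, adjusted p = 0.355), and the H2AC18 probe set of its own was dim, at 21.1 to 23.5.

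H2B genes supplied 3 of the 4 clustered falls. Of 14 clustered H2B genes, 0 rose and 3 fell, against 8.24% and 9.36% of all genes. Of the 14, 11 had a negative value, beside 6506 of all 12165 genes. The median was -0.14, beside -0.017 over all genes. H2BC8 read 23.3, 23.4 and 23.2 with gedunin against 40.0 and 41.9. The gedunin arrays were nearly equal and lay in the lower part of the intensity range. H2BC8 fell by 0.81 ± 0.08, to 56.9% of DMSO (adjusted p = 0.000145), in each fit that left out 1 array as well. A second H2BC8 probe set read 21.6, 27.9 and 26.2 against 32.8 and 33.8 and also fell, by 0.41 ± 0.12 (adjusted p = 0.0400). Another, shared with H2BC4, read 23.6 to 29.6 against 26.6 and 28.1 and did not pass (-0.03 ± 0.11, adjusted p = 0.896). The 2 probe sets naming H2BC8 alone thus gave 56.9% and 75.3% of DMSO, and the one shared with H2BC4 gave 97.8%.

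H2BC9 read 54.6, 60.9 and 53.3 against 83.5 and 67.8 and fell by 0.42 ± 0.11 (adjusted p = 0.0311). Its call was lost without gedunin 1 (-0.40), gedunin 3 (-0.38) or DMSO 1 (-0.27). H2BC5, which also gives polyadenylated messages, read 320, 347 and 351 against 442 and 429, and fell by 0.36 ± 0.09 (adjusted p = 0.0220). Its call was lost without gedunin 1 (-0.32), DMSO 1 (-0.34) or DMSO 2 (-0.38). A second H2BC5 probe set, at 175 to 214 against 202 and 202, overlapped with the controls and did not pass (-0.06 ± 0.10, adjusted p = 0.764).

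The brightest H2B gene with a probe set of its own, H2BC12, read 1766, 1878 and 1885 against 2100 and 2114. All gedunin arrays were below both controls, yet the difference did not pass (-0.19 ± 0.09, adjusted p = 0.181), nor did its other probe set (-0.28 ± 0.09, adjusted p = 0.0758). H2BC6 read 242 to 250 against 313 and 283 (-0.28 ± 0.09, adjusted p = 0.0633), and H2BC21 read 626 to 702 against 774 and 719 (-0.15 ± 0.09, adjusted p = 0.382). Many H2B probe sets carry the suffix _x_at, which marks probes that may also match related genes, and H2BC5, H2BC6 and H2BC9 were read on such probe sets. Their values may therefore share signal.

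**Figure D3:**
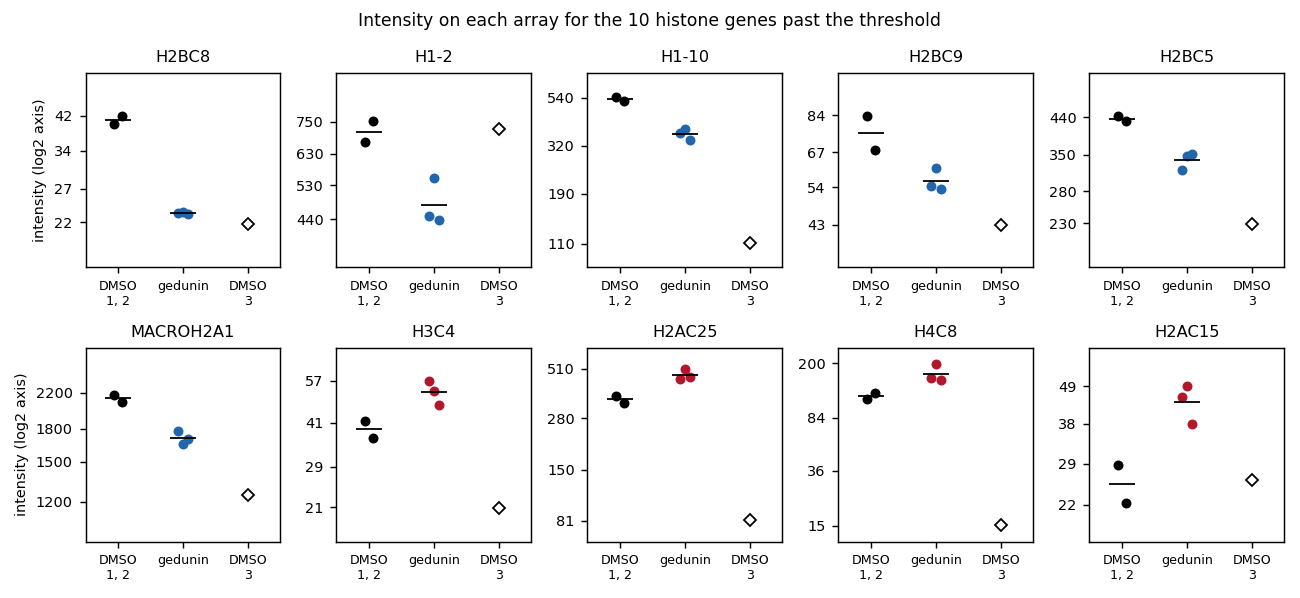
Intensity on each array (log2 axis, a range of its own in each panel) for the 10 histone genes past the threshold, with black circles for DMSO 1 and 2, coloured circles for gedunin (blue fell, red rose), bars for geometric means and an open diamond for the array labelled DMSO 3. In each panel the 3 gedunin arrays do not overlap with DMSO 1 and 2, and the diamond lies below both controls for all except H1-2 and H2AC15.

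Among genes of H3 and H4, the histone pair at the core of the nucleosome, 1 gene of each rose. H3C4 read 57.1, 52.7 and 47.1 against 41.7 and 36.3, with no overlap, and rose by 0.42 ± 0.11 (adjusted p = 0.0275). Its other probe set read 48.2, 50.9 and 45.6 against 36.1 and 38.6 and rose alike, by 0.37 ± 0.09 (adjusted p = 0.0230). The call on the brighter probe set was lost without gedunin 1 (0.36), gedunin 2 (0.41), DMSO 1 (0.52) or DMSO 2 (0.32), and after centring on GAPDH and ACTB (0.25).

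H4C8 read 157, 197 and 153 against 113 and 125. It rose by 0.50 ± 0.12 (adjusted p = 0.0206), and its dimmer probe set rose by 0.32 ± 0.09, from 20.8 and 22.7 to between 25.8 and 28.1 (adjusted p = 0.0420). On the brighter probe set the call was lost without DMSO 1 (0.42) or DMSO 2 (0.58) and after centring on GAPDH and ACTB (0.33). A probe set shared by H4C14 and H4C15 rose as well, from 17.2 and 23.5 to 35.5, 28.6 and 27.7 (0.60 ± 0.15, adjusted p = 0.0229), with its call lost without gedunin 1 (0.48) or DMSO 1 (0.37).

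The brightest H4 gene, H4C3, did not change beyond its spread, at 786, 863 and 852 against 787 and 853 (0.02 ± 0.09, adjusted p = 0.904). Probe sets shared by H4C11 and H4C12 had 0.15 ± 0.09 and 0.22 ± 0.09, neither called. H3C10 had the lowest value of the H3 genes, at 97.8, 122 and 138 against 141 and 157, and did not pass (-0.33 ± 0.14, adjusted p = 0.148). Of 10 clustered H3 genes 1 rose and 0 fell, and of 10 clustered H4 genes likewise, against 8.24% and 9.36% of all genes. The medians were 0.019 and 0.090. Among these, 8 H3 genes and 7 H4 genes lay below the array median.

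Clustered genes outside these calls stayed between -0.33 and 0.26. The largest positive values among them were H1-5 (0.26), H2AC4 (0.25) and H4C6 (0.25), and the largest negative ones H3C10 (-0.33), H2BC6 (-0.28) and H2AC8 (-0.24). Listed as known to give polyadenylated messages were 5 measured clustered genes (H1-2, H2AC6, H2BC5, H2BC12, H2BC21). Of these 5, 0 rose and 2 fell, against 8.24% and 9.36% of all genes. Their median was -0.19, beside -0.017 over all genes. All 5 lay above the array median, and of the 6875 genes at or above it 924 rose and 1041 fell. Clustered genes often lie head to head and share the stretch between their starts. In 8 such pairs of measured members, with 194 to 979 bases between the starts, 0 pairs had both genes called and 4 had 1. Taken singly, 17.6% of all genes were called, and the count of pairs was not tested. H2BC8 (-0.81) faces H2AC8 (-0.24 ± 0.14, adjusted p = 0.324) across 233 bases, H2AC15 (0.79) faces H2BC15 (0.08 ± 0.12) across 194 and H3C4 (0.42) faces H2BC7 (-0.13 ± 0.10) across 223. The remaining pair with 1 gene called was H2BC9 (-0.42) and H3C7 (0.0021 ± 0.09), with 979 bases between the starts. The difference between the partners was not tested.

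Of the 6 replacement H2A genes, 0 rose and 1, MACROH2A1, fell, against 8.24% and 9.36% of all genes. H2AZ1, the main H2A.Z gene, whose product marks gene starts, read 2754, 2708 and 2721 against 2680 and 2779 (-0.00080 ± 0.084, adjusted p = 0.996). H2AZ2, its paralog, read 1036, 1054 and 1016 against 1017 and 1075 (-0.01 ± 0.09, adjusted p = 0.940), while its dimmer probe sets had -0.28 ± 0.11 and -0.15 ± 0.10, neither called. H2AX, whose product is phosphorylated beside DNA breaks, read 1486, 1668 and 1729 against 2033 and 1943. All gedunin arrays were below the controls, and the difference did not pass (-0.29 ± 0.10, adjusted p = 0.0752). It passed after a second quantile normalization (-0.34, adjusted p = 0.0425), centring on GAPDH and ACTB (-0.46, 0.0114), with a trended and robust variance model (-0.29, 0.0071) and with 16 added before log2 (-0.29, 0.0403). The other 3 H2AX probe sets had values from -0.19 to 0.15, none called.

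MACROH2A1, a large H2A variant of silent chromatin, read 1775, 1657 and 1703 against 2181 and 2087, and fell by 0.32 ± 0.09 (adjusted p = 0.0343). The call was lost whichever array was left out (-0.35 to -0.29). Its dim second probe set had the opposite sign, at 29.6 to 31.7 against 26.3 and 23.9 (0.28 ± 0.09, adjusted p = 0.0737), and another, shared in the annotation with TLR4, read 1454 to 1693 against 1796 and 1774 (-0.17 ± 0.10, adjusted p = 0.292, or -0.34 and 0.0407 after centring on GAPDH and ACTB). MACROH2A2, its paralog, read 69.2 to 77.0 against 71.2 and 79.7 (-0.05 ± 0.10). H2AJ was dim, at 16.9 to 22.4 against 21.8 and 20.0 (-0.09 ± 0.12), and a probe set shared by H2AB1 and H2AB3, short H2A variants of testis, read 18.2 to 19.9 against 17.4 and 19.0 (0.05 ± 0.09).

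H3.3, the replacement form of H3, is encoded by H3-3A and H3-3B. All 4 probe sets that name H3-3A also name processed pseudogenes (H3P6, and on 3 of them H3P16). On the brightest, gedunin arrays read 5720, 5968 and 6013 against 7210 and 7301, and the value fell by 0.30 ± 0.08 (limma adjusted p = 0.0408). On another, 5454, 6265 and 5753 stood against 7348 and 7282 (-0.33 ± 0.09, adjusted p = 0.0392), and on the third, 3619, 3930 and 3769 against 4777 and 4744 (-0.34 ± 0.09, adjusted p = 0.0271). The fourth, at 3495, 3171 and 3744 against 3915 and 4088, did not pass (-0.21 ± 0.10, adjusted p = 0.206), but did after centring on GAPDH and ACTB (-0.38) and with a trended and robust variance model (adjusted p = 0.031).

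Of the 4 H3-3A probe sets, 3 were called lower. Over all 86 histone probe sets 7 were called higher and 10 lower, beside 7.37% and 7.91% of all probe sets. The H3-3A probe sets read overlapping targets and are not independent. Of the 3 calls, that of the brightest was lost whichever array was left out (-0.31 to -0.28), and those of the other two held in 1 of 5 such fits each. H3-3B read 3725, 3956 and 3677 against 4148 and 3926 on its brightest probe set (-0.09 ± 0.09, adjusted p = 0.574), and its other 3 had 0.02 to 0.14, none called. The difference between H3-3A and H3-3B was not tested. The H3-3B window held 1 octamer, the only replacement promoter of 8 to do so.

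**Figure D4:**
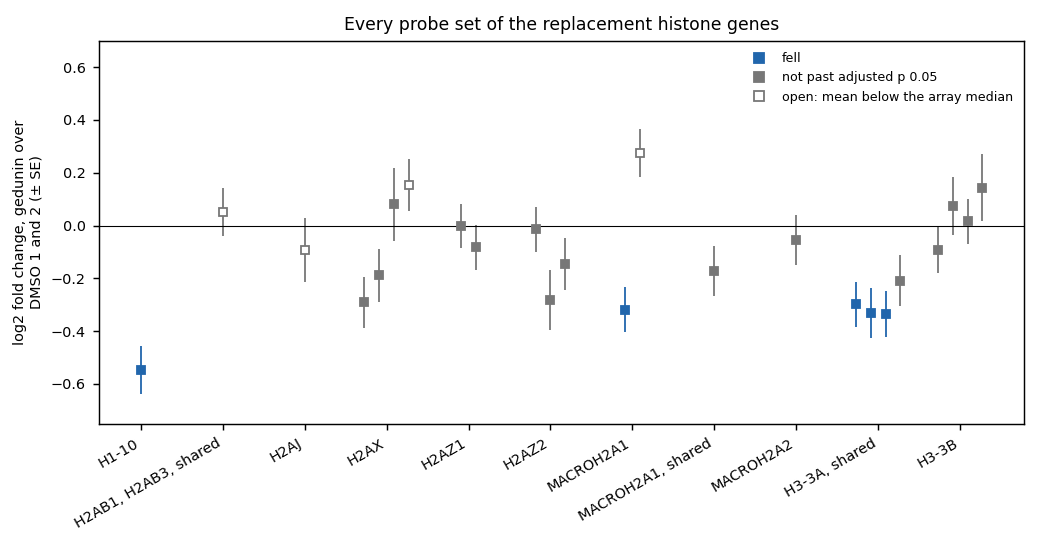
Log2 fold change (gedunin over DMSO 1 and 2, with moderated standard error) on every probe set of the replacement histone genes, those of a gene ordered from bright to dim, with shared probe sets in columns of their own. H1-10, the bright MACROH2A1 probe set and 3 of 4 shared H3-3A probe sets fell, the 4 H3-3B probe sets lie between -0.09 and 0.14, and open squares have a mean below the array median.

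Among genes that make and process clustered histone messages, some changed by over 2-fold. Of 11 measured genes of a list of 17, 2 rose and 3 fell, against 8.24% and 9.36% of all genes. Their median was 0.047, beside -0.017 over all genes. At or above the array median lay 10 of the 11, and of the 6875 genes there 924 rose and 1041 fell. ZNF473, the zinc finger protein ZFP100 that binds the U7 particle at the 3′ end of these messages, read 88.2, 102 and 87.9 with gedunin against 38.0 and 32.0. It rose by 1.40 ± 0.11 (adjusted p = 2.09e-05) and also with all 6 arrays (1.36, adjusted p = 0.0123). SLBP, which binds the stem-loop and is needed for processing and translation of the messages, read 1094, 1024 and 910 against 430 and 501, so that the lowest treated array was well above the higher control. SLBP rose by 1.12 ± 0.11 (adjusted p = 0.000100), and was called whichever of the 5 arrays was left out, as was ZNF473. On the array labelled DMSO 3 SLBP read 902, and it was not called with that array among the controls (0.80, adjusted p = 0.372).

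NPAT, the coactivator of histone gene transcription in S phase, read 83.2, 93.0 and 90.2 against 147 and 123 and fell by 0.60 ± 0.10 (adjusted p = 0.00368). It missed the threshold without DMSO 1 (-0.47, adjusted p = 0.0542), and on probe sets without the suffix _x_at or _s_at (-0.34, adjusted p = 0.0581). TUT7, a uridylyl transferase that acts in decay of histone messages, fell by 0.67 ± 0.09 (adjusted p = 0.000760), from 120 and 126 to between 73.7 and 81.5. CSTF2, a cleavage factor, fell by 0.36 ± 0.09 (adjusted p = 0.0311), a call lost whichever array was left out (-0.42 to -0.29). CASP8AP2, the FLASH protein of the same complex, was dim and had 0.05 ± 0.09.

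Histone chaperones, which carry histones to DNA, fell more often than they rose. Of 30 measured genes 2 rose and 8 fell, with a median of -0.19, against 8.24% and 9.36% of all genes. The array median intensity was reached by 29 of the 30, and calls were more frequent among such brighter genes. Of all 6875 brighter genes 924 rose and 1041 fell, with a median of -0.064. The ASF1 paralogs, which hand on H3 and H4, moved in opposite directions. ASF1A read 410, 434 and 424 against 254 and 304 and rose by 0.60 ± 0.10 (adjusted p = 0.00272), with 0.28 and no call on a probe set without the suffix _s_at or _x_at. ASF1B, the paralog tied to proliferation, read 55.8, 66.8 and 52.3 against 90.7 and 97.0 and fell by 0.69 ± 0.11 (adjusted p = 0.00259). Both were called in each fit that left out 1 array.

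The other rise was SUPT6H, a chaperone of transcribed chromatin (0.50 ± 0.12, adjusted p = 0.0158), not called without gedunin 1 (0.45) or DMSO 1 (0.40). HJURP, the CENP-A chaperone, had -0.44 ± 0.09 (adjusted p = 0.00957), the importin IPO4 -0.41 ± 0.09 (adjusted p = 0.0155) and the FACT subunit SUPT16H -0.39 ± 0.10 (adjusted p = 0.0323). HJURP and IPO4 were not called without DMSO 1 (-0.45 and -0.41) or DMSO 2 (-0.43 and -0.41), and SUPT16H was called only without gedunin 3 among these fits. CHAF1A, the large subunit of the assembly factor CAF-1, did not pass (-0.21 ± 0.12, adjusted p = 0.296). Nor did CENPA, the centromeric H3 variant, at 93.1 to 105 against 130 and 118 (-0.30 ± 0.10, adjusted p = 0.0721). Both passed after centring on GAPDH and ACTB (CHAF1A -0.38, CENPA -0.47). CENPA also passed with dim probe sets left out (adjusted p = 0.0493) or 16 added before log2 (0.0494). Neither passed without gedunin 1, 2 or 3 (CHAF1A -0.14, -0.32 and -0.16, CENPA -0.24, -0.33 and -0.33).

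**Figure D5:**
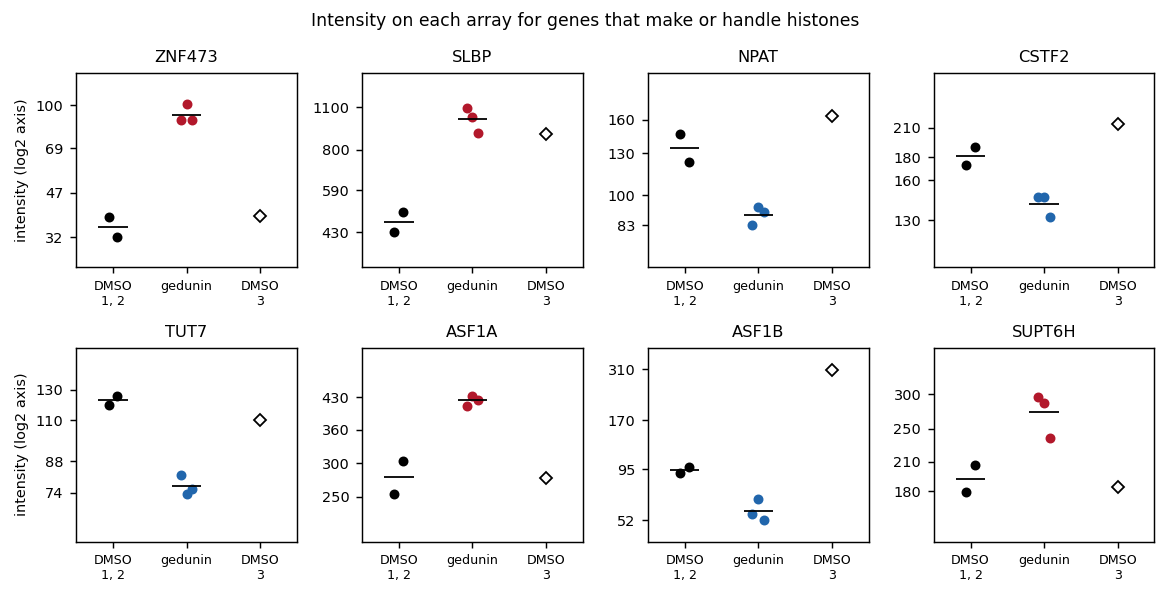
Intensity on each array (log2 axis, a range of its own in each panel) for 8 genes of histone message processing and histone deposition, with symbols as in the plot of called histone genes. The panels show called genes only, with ZNF473, SLBP, ASF1A and SUPT6H higher with gedunin and NPAT, CSTF2, TUT7 and ASF1B lower.

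Clustered histone genes are active in S phase, and S-phase genes are given for comparison. Of 31 measured S-phase genes 1 rose and 12 fell, against 8.24% and 9.36% of all genes. Their median was -0.27, beside -0.017 over all genes. At or above the array median lay 29 of the 31, and of the 6875 genes there 924 rose and 1041 fell. CCNA2, the S-phase cyclin A2, read 84.5, 71.8 and 76.9 against 194 and 163 and fell by 1.20 ± 0.11 (adjusted p = 6.45e-05). The cyclin E genes CCNE2 (-0.88 ± 0.13) and CCNE1 (-0.83 ± 0.13) and RRM2, a subunit of ribonucleotide reductase (-0.77 ± 0.10), also fell (adjusted p = 0.00167, 0.00168 and 0.000497). POLA2, a subunit of the DNA polymerase alpha-primase complex, fell by 0.54 ± 0.11 (adjusted p = 0.00771), a call lost without DMSO 2 (-0.42). CDC6, which loads the replicative helicase, was the 1 rise, from 96.3 and 92.3 to between 179 and 192 (0.98 ± 0.09, adjusted p = 5.07e-05). The share of cells in S phase was not measured, and its part in the histone values was not tested.

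On the array labelled DMSO 3, 9 of the 59 histone genes read at least 2-fold below the mean of DMSO 1 and 2, and 1 at least 2-fold above, against 13% and 8.94% of all genes. H2BC21 read 54.4 there against 774 and 719, H4C8 15.2 against 113 and 125, and H3C10 23.1 against 141 and 157. H2AC6 read 118 against 549 and 593, and H2AC25 81.5 against 368 and 336. H2AZ1, at 2382, stood 1.15-fold and H2AX, at 1684, 1.18-fold below the mean of DMSO 1 and 2. Of the S-phase genes 15 of 31 read at least 2-fold higher on it. Of the 9 lower members 7 were clustered genes, and with this array among the controls the clustered median was 0.072 in place of 0.017.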

How the data were processed

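RNA of 6 LNCaP cultures was labelled as biotinylated cRNA by the standard Affymetrix protocol, per the labels. The deposited table holds 1 intensity per array for 22215 probe sets, made by the authors with RMA (background correction, quantile normalization and summary of probes), per the submitters' processing notes. The version and the set of arrays processed together are not given in the sources used here. Values were linear (lowest 11.0), so log2 was taken with no pseudocount and no filter.

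A platform annotation of 2016 named 1 gene for 19724 probe sets, several for 568 and none for 1923. A gene took its own probe set with the highest mean over the 5 arrays. Gedunin (3) was compared with DMSO 1 and 2 by limma 3.58.1 (R 4.3.3), with Benjamini-Hochberg adjustment over all probe sets and a threshold of 0.05, after tests on simulated data. Errors are moderated standard errors. Percentages of DMSO are log2 fold changes put back on the linear scale.

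Members, gene lists and the choice to set DMSO 3 apart were made with earlier results of these data known. All replacement genes, called clustered genes and up to 6 called genes per companion list, by size of change, are named, besides SLBP, NPAT, ASF1A, ASF1B, CHAF1A and CENPA. Others named for their brightness, their head-to-head partner or their value on DMSO 3 were chosen after their values were seen. No list was tested. Alternatives covered the arrays used, normalization, centring, dim and cross-hybridising probe sets, variance model, array weights, threshold and offset.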

Additional observations from a re-analysis of the deposited data

Results flagged for a closer look

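H1-3, a clustered linker histone gene, read 44.2 on the array labelled DMSO 3, which was kept out of the comparison of gedunin with DMSO 1 and 2, against 21.7 and 20.1 on DMSO 1 and 2, or 2.12-fold their mean. It was the 1 member at least 2-fold higher on that array, and 8.94% of all genes were. On gedunin arrays it read 17.5 to 21.9.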

How the results depend on the processing

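With all 6 arrays limma called 0 histone genes higher and 0 lower (0 of each among clustered and 0 lower among replacement genes; 4 of 59 at an unadjusted p under 0.05, against 13.4% of all genes), and the medians were 0.072 (clustered) and 0.0024 (replacement). H1-10 changed sign there (0.21). Centred on GAPDH and ACTB, 1 histone gene was higher and 12 lower (clustered 1 and 9), beside 652 and 3139 of all genes, with medians of -0.15 and -0.26. At an adjusted p of 0.01, 1 was higher and 3 lower (clustered 1 and 2, replacement 1 lower). Without _x_at and _s_at probe sets, which left 39 clustered and 5 replacement genes, 2 were lower, both clustered, with 0 replacement genes lower and a clustered median of 0.044, and MACROH2A1 changed sign (0.28). H1-10, H2BC5 and H2BC9 had no probe set left there. Averaging a gene's probe sets left 1 replacement gene lower. No count over all genes is set beside those at 0.01, without _x_at and _s_at probe sets or with averaged probe sets. Whether these smaller counts are particular to histone genes was not tested. The clustered median was 0.0009 after a second quantile normalization, 0.037 centred on the array median and -0.0033 with dim probe sets left out. The causes were not tested.

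Leaving out 1 array gave 0 to 4 histone genes higher and 3 to 5 lower (clustered 0 to 4 and 2 to 4, replacement 0 to 0 and 1 to 1), with medians of 0.0054 to 0.032 (clustered) and -0.14 to -0.076 (replacement). Over all genes it left 1153 called without DMSO 1 and 1183 without DMSO 2, against 2142. Arrays numbered 1 and those numbered 2 showed no sign of pairing (residual correlations of -0.033 and 0.039). Residuals of DMSO 1 and 2 mirror each other, so these values cannot decide whether the cultures were paired. With the replicate number as a block, 4 histone genes were higher and 5 lower, beside 903 and 950 of all genes. Of these 5, 1 was a replacement gene, and the clustered median was 0.031. Of all genes, 1718 were called without gedunin 1, 1778 without gedunin 2 and 1939 without gedunin 3. Array weights and the probe set highest over 6 arrays changed no call named here. Dim signal limits 33 of the 59 genes.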
